A study of Homo sapiens with 6 samples.

Results

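Death receptor signalling was followed through 10 genes of the 62754 in the deposited count table. They were listed by name: the TRAIL receptor genes TNFRSF10A, TNFRSF10B, TNFRSF10C and TNFRSF10D, the receptor genes FAS and TNFRSF1A, the TRAIL gene TNFSF10, the adaptor gene FADD, the initiator caspase gene CASP8 and its regulator CFLAR. All 10 were matched by Ensembl identifier and passed the filter on low counts, TNFRSF10A and TNFRSF10C mainly through control libraries and TNFSF10 mainly through the libraries in which it was high. The set was proposed with the loss of TNFRSF10A in knockout cells already known. The comparison of knockout with control is therefore given for these genes as a description, without p-values.

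RNA was sequenced from control HEK293 cells (3 libraries) and from HEK293 cells with CRISPR/Cas9 knockout of FAM60A (3 libraries). HEK293 is a human embryonic kidney line, and one label field names HEK293T instead, the derivative that carries SV40 large T antigen. Both groups were grown in DMEM with serum, and no death ligand or drug is named other than the puromycin that selected the knockout pool. Whether the controls were exposed to puromycin is not given. Knockout was done in a pool of cells selected with puromycin after transfection with guide RNAs against several regions of FAM60A, and the labels give no treatment of the controls beyond the word control.

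Death receptors are members of the TNF receptor family with an intracellular death domain. Ligand binding lets TNFRSF10A (DR4), TNFRSF10B (DR5) and FAS recruit the adaptor FADD, which brings caspase-8 together for activation, while CFLAR (c-FLIP), a caspase-8 relative without proteolytic activity, limits that step. TNFRSF10C and TNFRSF10D bind TRAIL without transmitting a death signal and act as decoys. TNFRSF1A, the main TNF receptor, first assembles a complex that activates the transcription factor NF-kB, and many of the inhibitors of this pathway are themselves NF-kB target genes.

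FAM60A, listed under its current symbol SINHCAF (ENSG00000139146), had counts of 11028, 10165 and 12792 in control replicates 1 to 3 against 5684, 5793 and 5449 in knockout replicates 1 to 3. The groups did not overlap, and transcript remained in the knockout pool. Total counts lay between 88361827 and 93346824 per library. Control replicate 3 stood apart from the other controls: it differed from them at least 2-fold in 4742 to 4870 of 20743 genes, against 273 genes between control replicate 1 and control replicate 2. It differed from the knockout libraries in 2844 to 3255 genes. Control replicates 1 and 2 differed from the knockout libraries in 4389 to 4788 genes, and the knockout libraries from one another in 315 to 419. All 9 genes that HEK293 cells are known to express, among them NEFL, KRT8 and VIM, had at least 81 counts in every library, with a summed level of 1000 to 1730 CPM (reads per TMM-scaled library size) in controls and 803 to 953 CPM in knockout libraries. The 6 genes taken for MDA-MB-231, a breast cancer line also used in the study, summed to 85.3 to 131 and 98.5 to 109 CPM. All 6 had at least 13 counts in every library. Of 5 blood, liver and fibroblast genes, COL1A1 had at least 1145 counts, and PTPRC, ALB, HBB and COL1A2 at most 9. The part of these differences between libraries in the results was not tested.

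TNFRSF10A (ENSG00000104689) was present in both of the first control libraries and almost absent from the other 4. It had counts of 1199, 1024 and 13 in control replicates 1 to 3 against 0, 0 and 2 in knockout replicates 1 to 3. The lowest control thus held more reads than any knockout library, but the largest gap lay inside the control group. With every knockout library at or under a floor of 3 counts per library, the mean control level of 7.71 ± 6.61 CPM (SD, n = 3) was at least 223-fold above the knockout level. On the log2 CPM scale, control replicate 3 minus the mean of the other controls was -6.2, and the knockout mean minus control replicate 3 was -2.5. These last distances involve libraries with few reads and depend on the prior count of 2. In a pool of cells, fewer cells with the transcript and less transcript per cell cannot be told apart.

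The transcript TNFRSF10A-DT starts beside TNFRSF10A, runs the other way and overlaps it, and was also highest in control replicates 1 and 2. It had 104, 118 and 3 counts in control libraries, and 0 in each knockout library, at least 22.5-fold lower at the same floor. Control replicate 3 was itself at that floor, so its order against the knockout libraries is not resolved. The low-count filter kept TNFRSF10A-DT out of the test. It was examined after its values were seen.

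TNFRSF10D, the more abundant decoy receptor gene, had 7813, 8395 and 2762 counts in control replicates 1, 2 and 3. The knockout libraries held 3191, 3072 and 3207. Control replicate 3 was the lowest of the 6 libraries, so the groups overlapped. Expression was 65.4 ± 32.1 CPM for the controls against 36.4 ± 1.44 CPM for the knockout (SD, n = 3), with a fitted log2 fold change of -0.85 (standard error, SE, 0.39) that became -1.24 (SE 0.08) without control replicate 3.

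TNFRSF10C, the other decoy receptor gene, was a low-abundance transcript with 55, 52 and 11 counts in control libraries against 6, 8 and 6 in knockout ones. The groups did not overlap, and control replicate 3 again lay near the knockout libraries. The fitted log2 fold change was -2.38 (SE 0.64). At this depth the gap between 11 and 8 counts could not be told from counting error.

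TNFRSF10B, the other signalling TRAIL receptor gene, did not follow this pattern. It had counts of 11686, 11982 and 12558 in control replicates 1 to 3 against 11311, 11820 and 12592 in knockout replicates 1 to 3, making it the most abundant of the 10 transcripts per length in both groups. After scaling, the level was 125 ± 4.89 CPM for the controls against 137 ± 4.67 CPM for the knockout (SD, n = 3). All knockout libraries lay above all controls by this measure, with a fitted log2 fold change of 0.13 (SE 0.08). Under plain library-size scaling it was 0.03, and in raw counts the groups overlapped, so the separation depends on the scaling. The difference of 0.13 was small beside those of TNFRSF10A and TNFRSF10C.

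**Figure D1:**
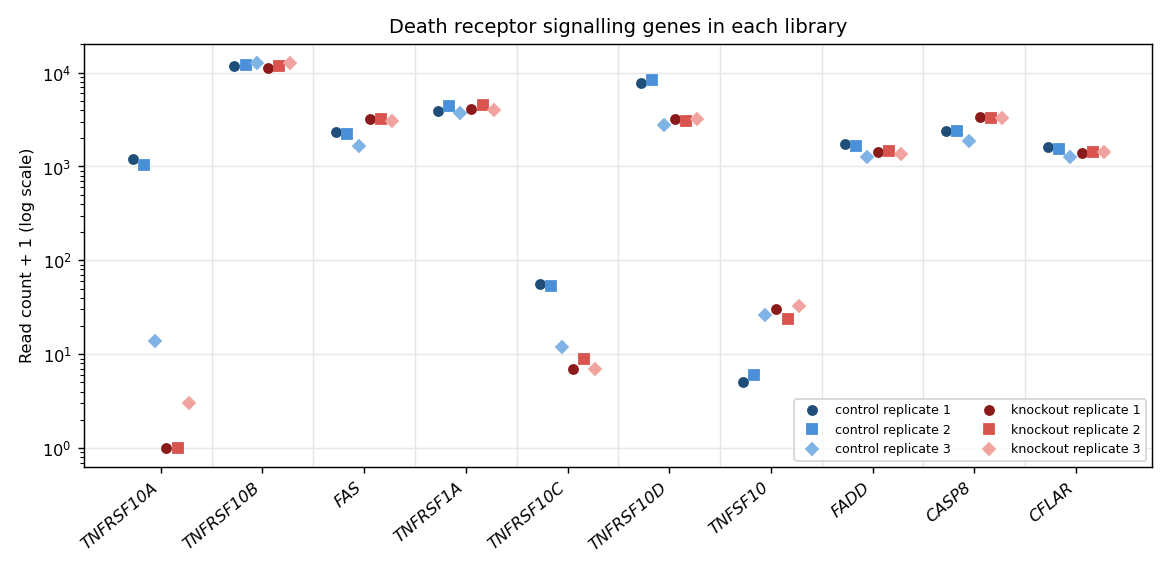
Read counts plus 1 (log axis) of the 10 death receptor signalling genes, with 1 point for each of the 3 control (blue) and 3 knockout (red) libraries. TNFRSF10A has 1199 and 1024 counts in control replicates 1 and 2, 13 in control replicate 3 and 0 to 2 in the knockout libraries, while TNFRSF10B lies between 11311 and 12592 counts.

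The 4 TRAIL receptor genes lie beside one another on chromosome 8. On GRCh38 they span 23020133 to 23069031 (TNFRSF10B), 23102921 to 23117445 (TNFRSF10C), 23135588 to 23164027 (TNFRSF10D) and 23190452 to 23225102 (TNFRSF10A) in the RefSeq annotation. RHOBTB2 on one side had 820 to 1172 counts and CHMP7 on the other 4372 to 6251 over the 6 libraries. R3HCC1 and ENTPD4, farther out, did not go under 3802 and 3076 counts in any library. LOXL2, which encodes a lysyl oxidase and lies between R3HCC1 and ENTPD4, had 2573 and 2623 counts in control replicates 1 and 2, 765 in control replicate 3, and 702, 719 and 679 in the knockout libraries. RHOBTB2, CHMP7 and ENTPD4 were also lower in control replicate 3 and every knockout library than in control replicates 1 and 2, by less. On the log2 CPM scale, control replicate 3 minus the mean of the other controls was -0.13, -0.35 and -0.47 for these, against -1.76 for LOXL2. In edgeR's quasi-likelihood test none of the 5 neighbours passed the threshold, with Benjamini-Hochberg adjusted p between 0.0871 (LOXL2) and 0.381 (RHOBTB2). Without control replicate 3 all 5 reached an adjusted p in edgeR of at most 0.0186, with log2 fold changes of -1.77 for LOXL2 and -0.26 to -0.44 for the others, in a fit where 65.6% of all genes tested were called.

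**Figure D2:**
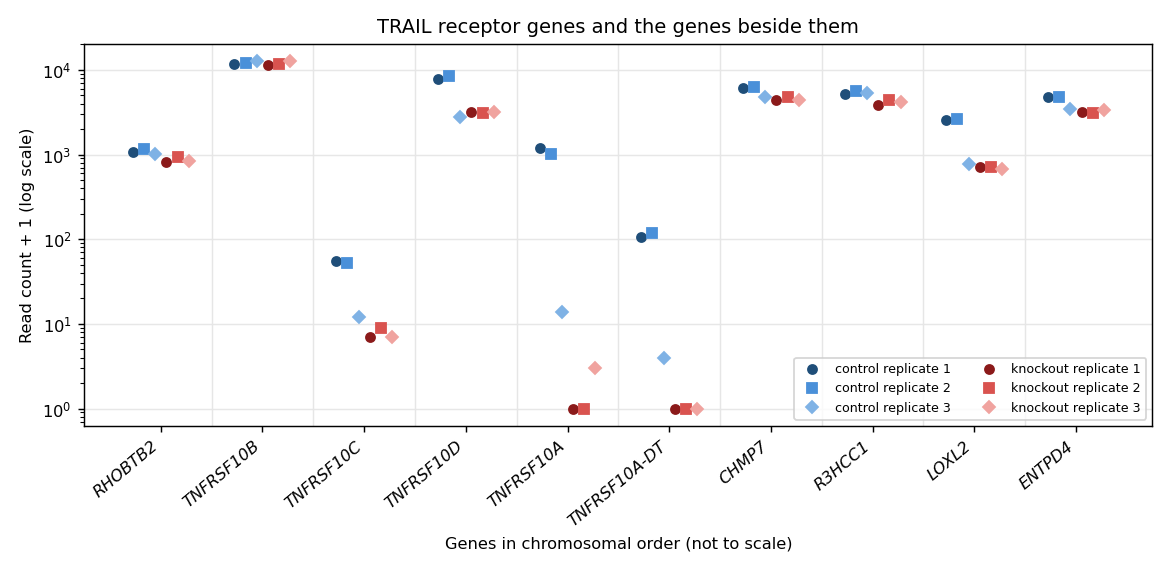
Read counts plus 1 (log axis) of the TRAIL receptor genes, TNFRSF10A-DT and 5 nearby genes in chromosomal order, with 1 point per library. TNFRSF10C, TNFRSF10D, TNFRSF10A, TNFRSF10A-DT and LOXL2 are lower in control replicate 3 and the knockout libraries than in control replicates 1 and 2. RHOBTB2, CHMP7 and ENTPD4 are so too, by a smaller gap, and TNFRSF10B between TNFRSF10C and RHOBTB2 is not.

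The profiles most like that of TNFRSF10A were sought among the 20992 genes tested, by the root mean square difference of centred log2 CPM over the 6 libraries. The nearest were PKP3 (0.48), ZNF141 (0.63), FLRT2 (0.69), CLCN4 (0.71) and RHOD (0.73), on chromosomes 11, 4, 14, X and 11. PKP3, a gene for a desmosomal plaque protein, had 2374, 2339 and 15 counts in control libraries, and 3 in each knockout library. None of the 5 nearest genes lies on chromosome 8, but TNFRSF10A-DT, kept out by the low-count filter, could not appear. Nothing on a local change is read from 5 genes.

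TNFSF10, the TRAIL ligand gene, was at the edge of detection in all libraries. It had counts of 4, 5 and 25 in control replicates 1 to 3 against 29, 23 and 32 in knockout replicates 1 to 3. Control replicate 3 again sided with the knockout libraries, and the groups were separated by a margin as small as 0.259 against 0.262 CPM. The log2 fold change was 1.45 (SE 0.67) with all libraries and 2.73 (SE 0.43) without control replicate 3. Per length, TNFSF10 had the lowest mean level of the 10 genes in controls, at 0.0671 ± 0.0702 CPM per kb (SD, n = 3). Its range over control libraries overlapped that of TNFRSF10C.

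FAS and CASP8 were higher in the knockout libraries than in every control. FAS, whose product binds FAS ligand, had counts of 2305, 2210 and 1657 in control replicates 1 to 3 against 3173, 3193 and 3049 in knockout replicates 1 to 3. Its level was 21.3 ± 3.60 CPM for the controls against 36.2 ± 1.58 CPM for the knockout (SD, n = 3), a fitted log2 fold change of 0.77 (SE 0.15). Here control replicate 3 was the control farthest from the knockout libraries. CASP8 had counts of 2416, 2375 and 1878 in control replicates 1 to 3 against 3338, 3276 and 3249 in knockout replicates 1 to 3. This corresponded to 23.0 ± 3.09 and 37.9 ± 1.51 CPM (SD, n = 3) and a log2 fold change of 0.72 (SE 0.13). Over the alternatives to the main processing the log2 fold change lay between 0.60 and 0.82 for FAS and between 0.58 and 0.77 for CASP8.

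TNFRSF1A, FADD and CFLAR had similar levels in both groups. TNFRSF1A had counts of 3919, 4383 and 3729 in control replicates 1 to 3 against 4086, 4514 and 3962 in knockout replicates 1 to 3, with a log2 fold change of 0.22 (SE 0.11). FADD had 1746, 1646 and 1254 counts against 1425, 1455 and 1371, and its log2 fold change was 0.03 (SE 0.16). CFLAR had 1618, 1547 and 1260 counts against 1381, 1424 and 1421, and its log2 fold change was 0.09 (SE 0.13). The knockout libraries lay inside the control range for FADD and CFLAR, and the groups overlapped for TNFRSF1A. The sign for FADD and CFLAR was not fixed: it turned to -0.08 and -0.02 under plain library-size scaling, which moved the median of all genes from -0.01 to -0.12, and to -0.13 and -0.04 without control replicate 3.

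**Figure D3:**
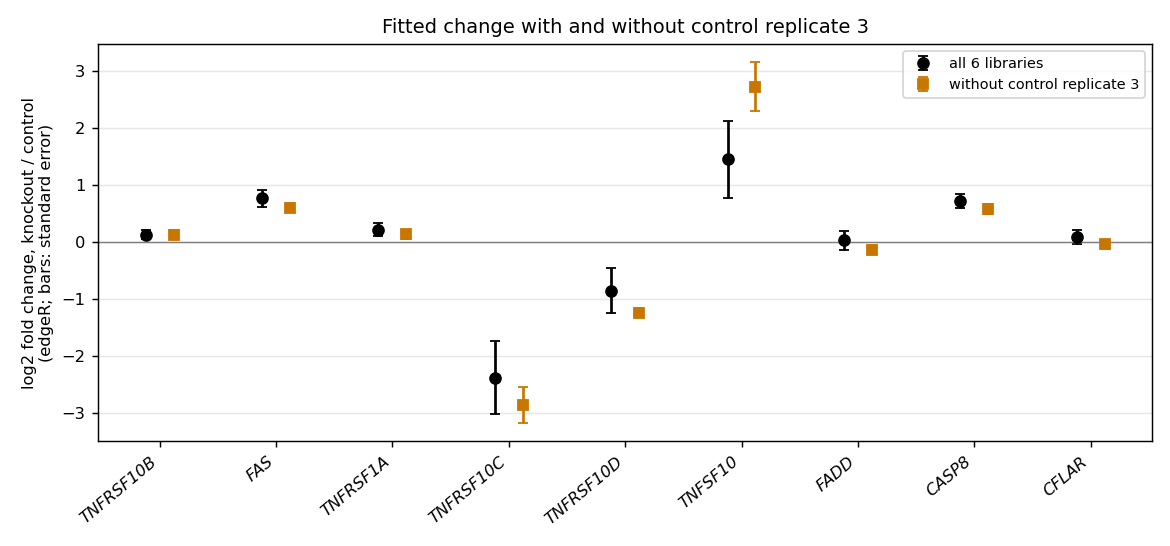
Fitted log2 fold change of knockout over control (edgeR, bars are standard errors) for 9 of the 10 genes, with all 6 libraries (black) and without control replicate 3 (orange); TNFRSF10A, at the floor in the knockout, is not drawn. Leaving out control replicate 3 moves TNFSF10 from 1.45 to 2.73 and TNFRSF10D from -0.85 to -1.24, while FAS and CASP8 move from 0.77 and 0.72 to 0.60 and 0.58.

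Of the 10 genes, 3 reached an adjusted p in edgeR of at most 0.05 (TNFRSF10A, FAS and CASP8), against 16.6% of all genes tested. By direction, 2 were higher and 1 lower, against 7.96% and 8.67% of all genes. At a 2-fold change as well, 0 were higher and 1 lower, against 3.34% and 3.72%, or 7.06% in either direction. Without control replicate 3, the calls were 3 higher and 3 lower, against 32.4% and 33.2%, and at a 2-fold change 1 higher and 3 lower, against 13.1% and 9.75%, or 22.9% together. Because the genes were chosen with this comparison in view, nothing is read from these counts. The groups did not overlap for 6 of the 10, 4 of them higher and 2 lower in the knockout, against 21.5% and 20.1% of all genes tested, or 41.6% together. Control replicate 3 lay nearer to the knockout mean than to the mean of the other controls for 7 of the 10 genes, and for 58.9% of all genes tested.

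Per kb of transcript, the mean levels in controls ran from TNFRSF10B (43.7 ± 1.71 CPM per kb, SD, n = 3) and TNFRSF1A (27.2 ± 2.40) down to TNFRSF10C (0.292 ± 0.182) and TNFSF10. The ranges of TNFRSF10C and TNFSF10 overlapped. In between, TNFRSF10D, FAS, CFLAR, CASP8, FADD and TNFRSF10A formed a series in which each range over libraries overlapped the next. In the knockout libraries FAS (26.2 ± 1.15) and CASP8 (19.9 ± 0.791) came next after TNFRSF10B and TNFRSF1A, then CFLAR (13.2 ± 0.125), and TNFRSF10D (10.3 ± 0.407) and FADD (9.57 ± 0.426) followed with overlapping ranges. TNFRSF10A was last. Lengths were medians over annotated protein-coding transcripts, so these ranks depend on the isoforms used.

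The other genes of the pathway were taken as a list of 48, of which 44 were tested. Of these, 7 rose and 4 fell in FAM60A-knockout cells at an edgeR adjusted p of at most 0.05, together 25.0% of those tested, where the share over all genes was 16.6%. Their median log2 fold change of -0.01 was that of all genes. TNFRSF6B, FASLG and RIPK3 had at most 3 counts in every library. Without control replicate 3 the list held 15 rises and 16 falls, 70.5% of the list where 65.6% of all genes tested were called, and without any other single library 2 or 3 rises and 0 falls. In the fits with 0 falls, 4 list genes were lower at an unadjusted p under 0.05.

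The rises were led by TNF and by genes of the NF-kB feedback. TNF, the ligand of TNFRSF1A, had counts of 38, 44 and 5 in control replicates 1 to 3 against 569, 611 and 578 in knockout replicates 1 to 3. Its log2 fold change was 4.49 (SE 0.70, adjusted p = 0.0127 in edgeR). Control replicate 3 was the lowest library, on the far side from the knockout. When knockout replicate 1, 2 or 3 was left out, TNF missed the threshold (adjusted p = 0.0787, 0.0641 and 0.0745 in edgeR), at log2 fold changes of 4.48 to 4.52.

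NFKBIA, which encodes the NF-kB inhibitor IkB-alpha, had counts of 1241, 1344 and 2226 in control replicates 1 to 3 against 9204, 10507 and 8716 in knockout replicates 1 to 3 (log2 fold change 2.72 ± 0.25 SE, adjusted p = 0.0037 in edgeR). BIRC3, which encodes cIAP2, a ubiquitin ligase of the TNF receptor complex, went from 195, 166 and 298 counts in control to 1253, 1059 and 1215 in knockout libraries (log2 fold change 2.58 ± 0.26 SE, adjusted p = 0.00497 in edgeR). These 2 genes kept their calls under all 12 alternatives, with a highest adjusted p of 0.0437 for NFKBIA and 0.0484 for BIRC3. TNFAIP3, the gene of the deubiquitinase A20, went from 1233, 1178 and 369 counts in control to 3053, 3374 and 3291 in knockout libraries (log2 fold change 1.96 ± 0.43 SE, adjusted p = 0.0309 in edgeR). Every knockout library lay above every control for these 3 genes, as for TNF.

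Smaller rises were those of CASP10, NFKB1 and HTRA2. CASP10, the gene of the initiator caspase closest to caspase-8, had counts of 285, 269 and 582 in control replicates 1 to 3 against 988, 1020 and 1051 in knockout replicates 1 to 3, with control replicate 3 in between (log2 fold change 1.58 ± 0.32 SE, adjusted p = 0.0254 in edgeR). NFKB1, which encodes the NF-kB subunit p50 and its precursor, rose by 0.68 on the log2 scale (SE 0.13, adjusted p = 0.0216 in edgeR). HTRA2, a mitochondrial protease gene, rose by 0.42 (SE 0.09, adjusted p = 0.0309 in edgeR).

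The 4 genes that fell did so by less than 2-fold each. IKBKG, which encodes the NF-kB kinase subunit NEMO, had counts of 874, 827 and 722 in control replicates 1 to 3 against 395, 340 and 403 in knockout replicates 1 to 3 (log2 fold change -0.93 ± 0.16 SE, adjusted p = 0.0171 in edgeR). IKBKG has a near-identical pseudogene copy, so the split of its reads is uncertain. TNFRSF25, a death receptor gene also known as DR3, changed by -0.88 (SE 0.20, adjusted p = 0.0315 in edgeR), and PEA15, a gene of a death effector domain protein, by -0.82 (SE 0.20, adjusted p = 0.0395 in edgeR). DFFB, the gene of the caspase-activated nuclease, changed by -0.60 (SE 0.15, adjusted p = 0.0442 in edgeR). These 4 calls, like those of TNFAIP3, CASP10, NFKB1 and HTRA2, were lost without any single library other than control replicate 3, with adjusted p of up to 0.188 over all alternatives.

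**Figure D4:**
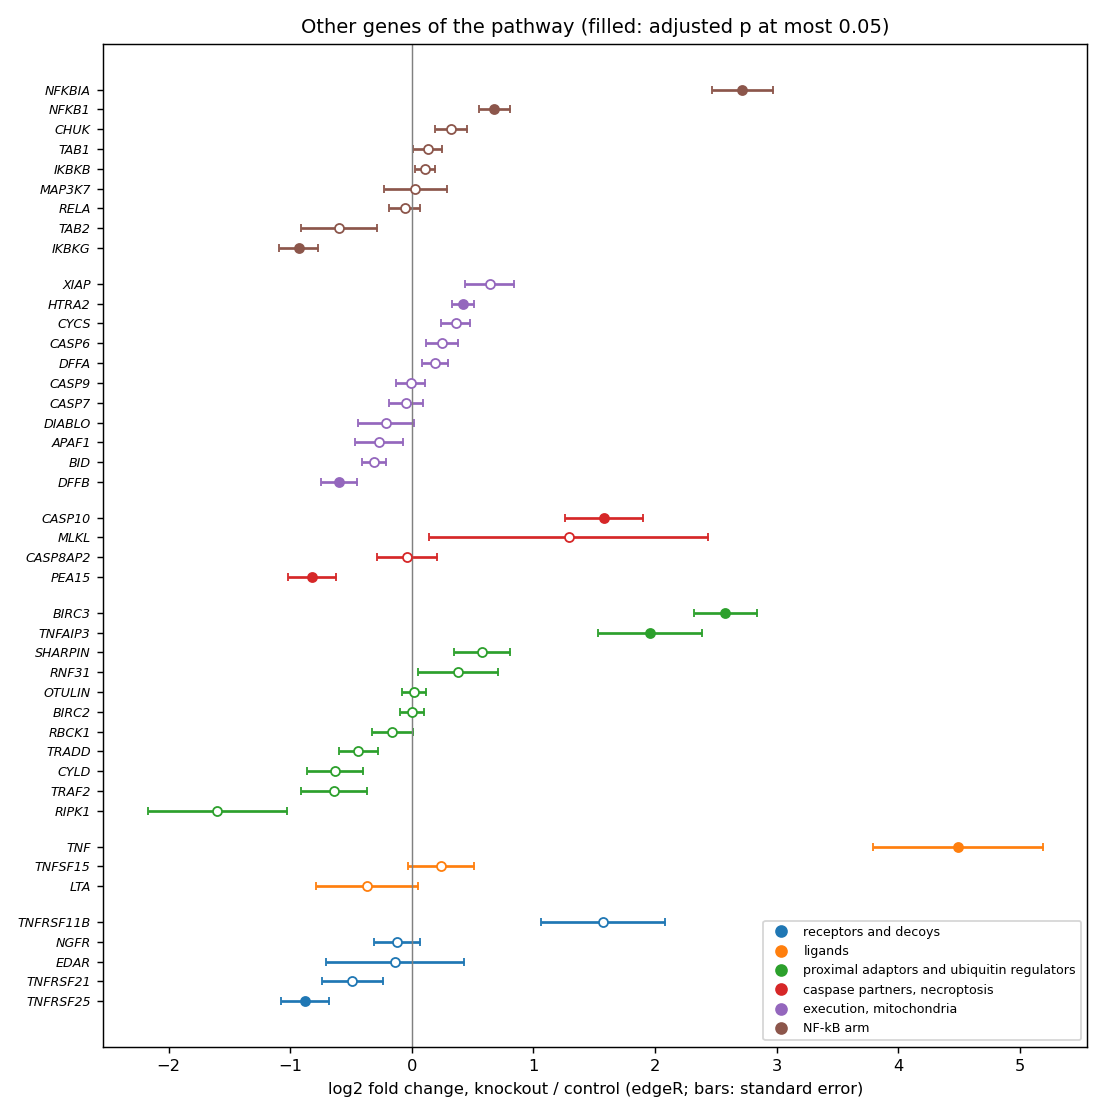
Fitted log2 fold change of knockout over control (edgeR, bars are standard errors) for 43 of the 44 tested genes of the pathway list, grouped by role; filled points have an adjusted p of at most 0.05. TNF (4.49), NFKBIA (2.72), BIRC3 (2.58) and TNFAIP3 (1.96) lie farthest to the right, and RIPK1 (-1.60, open) farthest to the left.

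Among genes that did not pass the test, RIPK1 and MLKL were singled out after their values were seen, for the distance of control replicate 3 from the other controls. RIPK1, the gene of the kinase that joins TNF receptor complexes, had counts of 3695, 3553 and 697 in control replicates 1 to 3 against 768, 792 and 800 in knockout replicates 1 to 3 (log2 fold change -1.60 ± 0.57 SE, adjusted p = 0.106 in edgeR). MLKL, the gene of the effector of necroptosis, went from 37, 36 and 758 counts in control to 609, 608 and 612 in knockout libraries (log2 fold change 1.29 ± 1.15 SE, adjusted p = 0.466 in edgeR). For both genes control replicate 3 lay just beyond the knockout values, on the side away from the other controls, so the groups overlapped. Without control replicate 3 the log2 fold changes were -2.08 for RIPK1 and 4.18 for MLKL.

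Of the 12 execution and mitochondrial genes, HTRA2 and DFFB passed the test, a share close to the 16.6% of all genes, and the log2 fold changes of all 12 lay between -0.60 (DFFB) and 0.64 (XIAP). BID and XIAP are named after their values were seen. BID, which links caspase-8 to mitochondria, had a log2 fold change of -0.31 (SE 0.10, adjusted p = 0.0901 in edgeR).

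Promoter sequence was examined for the genes that rose, because NFKBIA, BIRC3 and TNFAIP3 are textbook NF-kB targets. The 250 bases before each RefSeq start (GRCh38.p14) were searched on both strands for the kappa-B consensus, the DNA element bound by NF-kB. A match was found in 9.96% of all 35116 entries. Of the 7 genes that rose, 6 had an entry, and NFKBIA, BIRC3, TNFAIP3 and NFKB1 had a match, in 4 of 8 entries. Of the other 41 list genes, 31 had an entry and 3 had a match, in 3 of 53 entries. Of the 10 death receptor signalling genes, 6 had an entry, and FAS and CFLAR had a match, in 1 of 3 and 1 of 4 entries. A match describes letters in this window and does not show binding. The matched windows of FAS, BIRC3, TNFAIP3 and NFKBIA are shown 5′ to 3′ on the strand of the gene, with the matches in capitals. The FAS window, chr10:88991181-88991430 on the forward strand, has its match starting 157 bases before the start. The BIRC3 window is chr11:102317234-102317483, the TNFAIP3 window chr6:137867009-137867258, both on the forward strand, and the NFKBIA window chr14:35404750-35404999 on the reverse strand.
FAS: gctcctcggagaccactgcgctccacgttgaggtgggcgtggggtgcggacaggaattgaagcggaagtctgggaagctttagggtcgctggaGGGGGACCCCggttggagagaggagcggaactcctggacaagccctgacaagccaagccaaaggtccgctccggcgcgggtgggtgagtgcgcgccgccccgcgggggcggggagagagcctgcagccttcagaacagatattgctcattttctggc
BIRC3: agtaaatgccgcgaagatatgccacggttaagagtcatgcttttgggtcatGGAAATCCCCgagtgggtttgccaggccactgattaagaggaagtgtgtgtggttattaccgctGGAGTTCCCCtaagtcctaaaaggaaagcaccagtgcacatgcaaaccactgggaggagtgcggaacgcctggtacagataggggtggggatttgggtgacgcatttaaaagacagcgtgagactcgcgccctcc
TNFAIP3: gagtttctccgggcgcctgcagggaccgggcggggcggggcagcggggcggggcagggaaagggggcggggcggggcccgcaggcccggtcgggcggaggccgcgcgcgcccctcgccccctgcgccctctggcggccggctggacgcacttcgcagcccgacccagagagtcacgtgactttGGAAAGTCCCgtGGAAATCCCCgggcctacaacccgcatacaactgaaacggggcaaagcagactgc
NFKBIA: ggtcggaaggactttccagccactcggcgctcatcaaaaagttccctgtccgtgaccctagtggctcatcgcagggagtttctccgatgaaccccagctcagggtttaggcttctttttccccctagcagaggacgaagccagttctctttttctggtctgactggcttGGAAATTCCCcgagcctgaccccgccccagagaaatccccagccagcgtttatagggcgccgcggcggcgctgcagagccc
The 2 matches of BIRC3 start 199 and 135 bases before the start, those of TNFAIP3 67 and 55 bases before it, and that of NFKBIA 81 bases before it. BIRC3, TNFAIP3 and NFKBIA are 3 of the 4 pathway genes with the largest rises, while TNF, with the largest, had no match in its window. The search was made because BIRC3, TNFAIP3 and NFKBIA are textbook NF-kB targets, so their matches are a description and not a test.

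A further 21 commonly named NF-kB target genes were then examined, a list made after the values of TNF, NFKBIA, BIRC3 and TNFAIP3 had been seen. Of these, 19 were tested, and 8 reached an adjusted p in edgeR of at most 0.05, all of them higher in the knockout, against 7.96% of all genes tested. Their median log2 fold change was 1.0, against -0.01 for all genes. CXCL1, a chemokine gene, had counts of 91, 142 and 29 in control replicates 1 to 3 against 2358, 2431 and 2126 in knockout replicates 1 to 3, and CXCL2 had 49, 43 and 42 against 675, 755 and 667. The knockout libraries lay above every control for 13 of the 19 genes, against 21.5% of all genes tested. Without control replicate 3, 15 of the 19 were called, 13 higher and 2 lower (SOD2 and NFKBIE), or 78.9% against 65.6% of all genes. Of the 8 genes called with all libraries, CXCL2 and CXCL3 kept an edgeR, DESeq2 or limma adjusted p of at most 0.0437 under every alternative, and the other 6 missed the threshold under at least 1, with highest adjusted p from 0.0542 (CXCL1 and VCAM1) to 0.154 (TNIP1). Control replicate 3 was nearer to the knockout mean than to the other controls for 4 of the 19 genes tested, or 21.1%, whereas it was nearer for 58.9% of all genes. With all libraries, SOD2 (-0.18, edgeR adjusted p = 0.452), NFKBIE (-0.13, 0.649) and TRAF1 (-0.04, 0.909) did not pass the test.

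**Figure D5:**
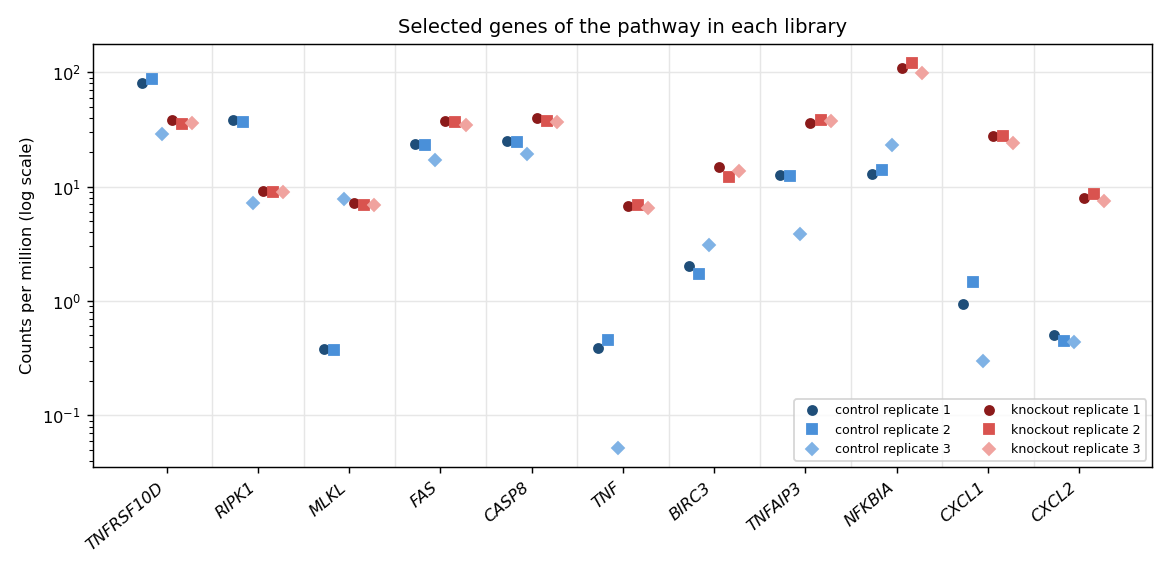
CPM (log axis) of 11 genes, with 1 point for each of the 3 control (blue) and 3 knockout (red) libraries. For TNFRSF10D, RIPK1 and MLKL control replicate 3 lies nearer to the knockout libraries than to the other controls, and for FAS, CASP8, TNF, BIRC3, TNFAIP3, NFKBIA, CXCL1 and CXCL2 all controls lie below all knockout libraries.

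Some reads cannot be assigned with certainty. The TRAIL receptor genes are paralogs, and how reads matching several of them were counted is not given in the sources used here. FAS overlaps ACTA2 (828 to 1323 counts), TNFRSF10B overlaps RHOBTB2 and TNFRSF10A overlaps TNFRSF10A-DT, each on the opposite strand. TNFRSF10B also overlaps the lncRNA ENSG00000246130 on the opposite strand. Unlike TNFRSF10B, that lncRNA was lower in control replicate 3 and the knockout libraries. It had 87, 82 and 44 counts in control libraries against 22, 32 and 29 in knockout ones. With the strand setting of the counting not given, the counts of the genes in each pair may not be independent. TNFRSF10C shares its strand with the overlapping lncRNA ENSG00000284948, which had counts of 69, 90 and 87 in control replicates 1 to 3 against 26, 32 and 26 in knockout replicates 1 to 3.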

How the data were processed

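Poly(A)-selected RNA was sequenced from 3 control and 3 FAM60A-knockout libraries. The authors deposited raw whole-number counts per Ensembl gene (62754 genes, 60878 matched to a symbol). The paper's methods name Trimmomatic and Salmon on hg38, the submitters' processing notes STAR 2.7.10b, featureCounts 2.0.0 and hg38, and the labels hg19. The annotation and the strand setting of the counting are not given in the sources used here.

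Knockout was compared with control in edgeR 4.0.16 (R 4.3.3) with TMM normalization, filterByExpr at a minimum count of 10 and its quasi-likelihood F-test (two-sided), with Benjamini-Hochberg adjustment over 20992 genes and a threshold of 0.05. Calls that also reached a 2-fold change, the criterion of the paper's methods, were counted separately. Log2 CPM used a prior count of 2. Whether replicates were separate cultures is not stated, so p-values measure the spread between these libraries. A floor of 3 counts per library covers counting error only. In simulated data with 200 genes changed by an absolute log2 fold change of 2, 180 were called, and 10 of the unchanged genes. The simulation spared genes of low mean count and held no library set apart like control replicate 3. Its counts therefore do not give the recovery in these libraries. The fitted counts have the depth and precision of 88361827 to 93346824 reads per library.

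Alternatives were DESeq2 1.42.0, quantile-normalized limma-voom (limma 3.58.1), plain library-size scaling in edgeR, omission of the filter, at least 10 counts in every library, each library left out, and replicate number as a block. The genes and lists were chosen with earlier results of these data known. Named were all 10 genes, SINHCAF, the called pathway genes, 5 neighbours and the 5 profiles nearest to TNFRSF10A, and the text says which other genes were chosen after their values were seen. Transcript lengths came from GENCODE v44 lifted to GRCh37, and positions and promoters from RefSeq GRCh38.p14. Python 3.11.15 and matplotlib 3.10.9 were used for summaries and figures. A gene of the pathway list is counted in the list but not reported by name or drawn here.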

Additional observations from a re-analysis of the deposited data

How the results depend on the processing

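In the main edgeR fit, 3491 genes were called, 1482 of them at a 2-fold change. DESeq2 called 5581 and the replicate block 407 and 334, and leaving out 1 library gave 167 to 14221 and 156 to 4965, the highest without control replicate 3 and the lowest without knockout replicate 1. Pathway genes called higher numbered 7, and 2 with the replicate block and 2 to 15 without 1 library. Pathway genes called lower numbered 4, and 7 with DESeq2, 2 without a filter, 0 with the block in edgeR (6 at an unadjusted p under 0.05) and 0 to 16 without 1 library. Of the 10 death receptor signalling genes, 3 were called, and 4 by DESeq2, which was run without the block. With the block in edgeR 0 were called (5 at an unadjusted p under 0.05). Without 1 library the calls numbered 0 to 6. Those fits had 0 calls without any library other than control replicate 3, and in each 4 of the 10 genes had an unadjusted p under 0.05. The cause was not tested. Same-numbered libraries did not deviate together (correlations of deviations -0.0343 to 0.0333, and 3 of 6 libraries correlated best with their own number). Whether same-numbered libraries shared handling is not stated, and these correlations, with control replicate 3 set apart, cannot tell. With the replicate block TNF also lost its call (edgeR adjusted p = 0.0551, log2 fold change 4.76). No call of the named genes reversed. TNFRSF10A, TNFRSF10C and TNFSF10 had no fit with at least 10 counts in every library. With few reads in TNFRSF10A, TNFRSF10C and TNFSF10, depth limits the size of their differences.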
